A study of Mus musculus with 14 samples.

Results

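The genes described here encode the machinery of fatty acid oxidation in mitochondria and peroxisomes, together with the nuclear receptor pair PPARα and RXRα and a few other targets of PPARα. They were chosen by gene symbol from a fixed list, and all 39 were found among the 23286 genes of the deposited tables. By place of action, 20 are mitochondrial, 12 are peroxisomal, 5 are other PPARα targets and 2 are the receptor genes Ppara and Rxra. All 39 passed the filter on low values in every comparison.

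Whole-kidney RNA was sequenced from mice aged 9 weeks, either 5 h after injury by ischemia and reperfusion (IR) or after a sham operation. The 12 libraries form 4 groups of 3: injured kidneys (Control-IR, VE-PTPiKO-IR) and sham kidneys (Control-sham, VE-PTPiKO-sham) of each genotype. The submitters use VE-PTPiKO for mice in which VE-PTP, an endothelial phosphatase encoded by Ptprb that acts on the receptor Tie2, was targeted. The strain of these mice, the driver and timing of the targeting, and what the Control mice carry are not given in the sources used here, and nothing states that the libraries of a group come from separate animals, so the p-values speak of the spread between libraries, which may be technical.

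Fatty acids are the main fuel of proximal tubule cells. A long-chain fatty acid is first joined to coenzyme A, then handed to carnitine by CPT1 on the outer mitochondrial membrane, carried across the inner membrane by the SLC25A20 carrier, and returned to coenzyme A by CPT2. In the matrix it is shortened by repeated rounds of dehydrogenation, hydration, dehydrogenation and thiolysis, and electrons leave through the electron transfer flavoprotein. Peroxisomes run a parallel spiral on very long, branched and dicarboxylic chains with their own enzymes. PPARα, bound to DNA as a heterodimer with RXRα, is a fatty acid sensor that switches on genes of both organelles.

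Each library held 15427887 to 21296392 reads counted over genes. Ptprb, the targeted gene, stood at 3061 to 4363 normalized counts in sham and 2040 to 2721 after IR in controls, and at 2068 to 3049 and 1314 to 2114 in VE-PTPiKO. These values sum reads over the entire gene and do not tell a partial deletion from an intact gene. A normalized count here is a read count divided by a size factor that puts all 12 libraries on one scale, while IR was tested against sham on the values as deposited, which were scaled within each genotype. The proximal tubule markers Slc34a1 and Lrp2 lay at or above 94320 and 55290 normalized counts in every library. The nuclear RNA Malat1 took 1.962% of reads in VE-PTPiKO-IR replicate 3, 1.152% in VE-PTPiKO-sham replicate 2 and 1.02% in Control-sham replicate 2, against 0.327% to 0.564% in the other libraries, so results were also computed without these 3. In whole tissue, fewer cells of a type and less RNA per cell cannot be told apart.

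In control kidneys, fatty acid oxidation genes were lower 5 h after IR. By limma, with p-values adjusted by the Benjamini-Hochberg method over all genes tested and a threshold of 0.05, 23 of the 39 fell and 0 rose, and 30 had an unadjusted p under 0.05 (10.5% of all genes were lower at that level). Of all 16257 genes tested, 4.02% were called lower, and 5.19% of those at or above the lowest mean among the 39, while 7.48% of all genes were called higher. The fitted difference was negative for all 39, against 51.6% of all genes, and their median on the log2 scale was -0.49, against -0.01 over all genes. In 29 of the 39 every IR library lay below every sham library, which held for 13.4% of all genes.

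In VE-PTPiKO kidneys, 7 of the 39 fell after IR and 0 rose, against 0.793% of 16401 genes called lower (1.31% at or above the lowest mean among the 39) and 1.92% called higher. These 7 were Rxra, Cpt1a, Slc25a20, Cpt2, Eci2, Pex11a and Acot1. The fitted difference was negative for 38 of 39 (51.1% of all genes), the median was -0.56 against -0.01 over all genes, and 23 had all IR libraries below all sham libraries (10.0% of all genes). At an unadjusted p under 0.05, 23 were lower, against 7.15% of all genes. The count of calls depended on single libraries: it was 14 without VE-PTPiKO-IR replicate 3, 10 without VE-PTPiKO-sham replicate 1, and 1 or 2 without any one of the other 4, with Pex11a called each time. Calls over all genes depended on them too. In the same order, 979, 140 and 18 to 47 genes were called lower, against 130 with all libraries. In controls the count of members called was 12 without Control-IR replicate 2 and 15 without Control-IR replicate 3 or Control-sham replicate 3. Over all genes, 252, 416 and 381 were called lower without these libraries, against 654 with all.

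**Figure D1:**
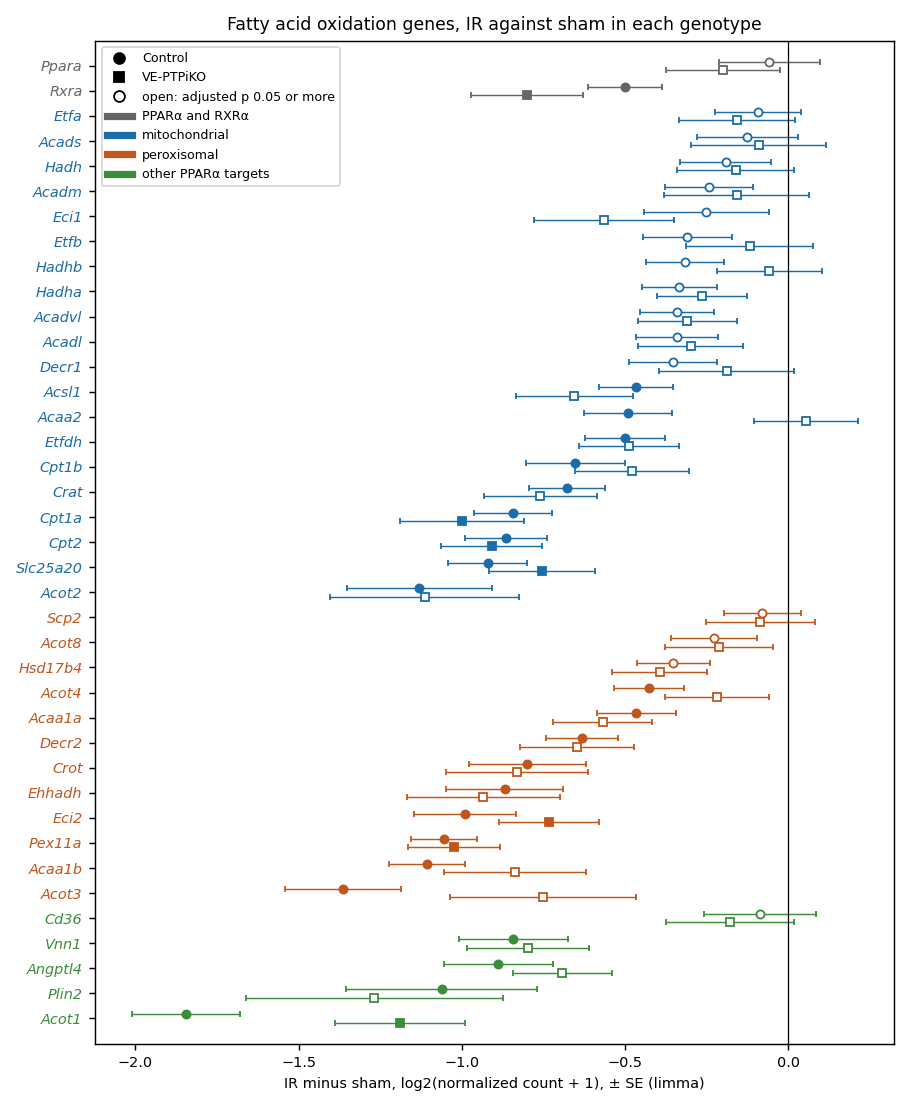
The difference between IR and sham on the log2(normalized count + 1) scale, with its standard error, for each of the 39 genes (rows, grouped by place) in Control (circles) and VE-PTPiKO (squares) kidneys; filled symbols have a limma adjusted p under 0.05. In controls all 39 points lie left of 0 and 23 are filled, while in VE-PTPiKO 38 lie left of 0 and 7 are filled.

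Of the receptor pair, Rxra was called in both genotypes and Ppara in neither. Ppara, which encodes the ligand-binding partner (mm10, chromosome 15, 85735775 to 85806851), stood at 1920, 2773 and 1862 normalized counts in Control-sham against 2306, 1917 and 1974 in Control-IR. In VE-PTPiKO it stood at 3128, 2182 and 3137 in sham and at 2260, 2265 and 2750 after IR. Sham and IR libraries overlapped in both genotypes, and the log2 difference was -0.06 ± 0.15 SE (95% interval -0.40 to 0.28, limma adjusted p = 0.873) in controls and -0.20 ± 0.17 (-0.59 to 0.20, adjusted p = 0.663) in VE-PTPiKO. The control value was 0.13 without Control-sham replicate 2.

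Rxra, the gene of its heterodimer partner (mm10, chromosome 2, 27710582 to 27763319), stood at 3597, 4433 and 3699 normalized counts in Control-sham against 2704, 2621 and 2923 in Control-IR. In VE-PTPiKO the sham libraries held 4396, 4348 and 5328 and the IR libraries 2420, 2347 and 3380. Every IR library lay below every sham library of its genotype. Rxra fell by 0.50 on the log2 scale in controls (SE 0.11, adjusted p = 0.0153) and by 0.80 in VE-PTPiKO (SE 0.17, adjusted p = 0.0453). The control call ended without Control-IR replicate 1 or 2 (adjusted p 0.0509 and 0.101), and the VE-PTPiKO call ended without any one library other than VE-PTPiKO-IR replicate 3 (0.084 to 0.238), with edgeR or with no filter on low values.

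PPARα and RXRα bind together to a direct repeat of a short word with a spacer base. The windows from 250 bases before to 50 bases after the start of each gene (RefSeq, GRCm38.p6) were searched on both strands for AGGTCA, any 1 base and AGGTCA again, counting how many of the 12 fixed letters agreed. Windows were found for 32 of the 39 genes (not for Acaa2, Angptl4, Cpt1b, Crat, Decr1, Hsd17b4 and Vnn1), 35 windows in all, since some genes have more than 1 RefSeq start. These RefSeq starts can differ from the gene positions given in this text, as they do for Rxra and Slc25a20. Of these, 6 (17.1%) agreed in 10 letters and none in more, while 3.86% of 32851 windows of all genes agreed in at least 10 and 0.554% in at least 11. The 6 are printed as 30 bases of the gene's own strand, 5′ to 3′, because they place the best-matching letters beside the genes whose values follow, with the 13 positions of the match, spacer included, in capitals.
Acot4: ccgaagcaTGACCTTTGGCCGgtctgtgcc
Cd36: tggttctcTGGCCTCTGACTTacttggatg
Etfa: gcacacccTTACCTTTGCCCTactcccaag
Plin2: agctttcaGGACCCCTGACCTaagtcagac
Rxra: ctgagtaaTGGTCATAGGCCAgtgggtggc
Slc25a20: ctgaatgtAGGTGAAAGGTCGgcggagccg
The stretches lie at chr12:84038358-84038387 (plus strand, Acot4), chr5:17835938-17835967 (minus strand, Cd36), chr9:55512299-55512328 (minus strand, Etfa), chr4:86670263-86670292 (minus strand, Plin2), chr2:27709209-27709238 (plus strand, Rxra) and chr9:108662134-108662163 (plus strand, Slc25a20). In Acot4, Cd36, Etfa and Plin2 the motif reads on the strand opposite to the gene, and in Slc25a20 the match starts at base 7 counted from the RefSeq start. The other Rxra window, chr2:27676951-27677250, agreed in 7 letters. Of the 18 members with a window that fell in controls 4 held such a match (Acot4, Plin2, Rxra and Slc25a20), and of the 14 with a window that were not called 2 did (Cd36 and Etfa). A match of letters is a description and shows no binding, and no match says only that these letters are not in the window.

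The entry steps into mitochondria fell together in controls. All 5 genes of the carnitine shuttle passed (Cpt1a, Cpt1b, Slc25a20, Cpt2 and Crat), against 4.02% of all genes called lower. Their median log2 difference was -0.84. Cpt1a, the outer-membrane transferase that commits long chains to oxidation (mm10, chromosome 19, 3323300 to 3385733), stood at 19101, 22052 and 20510 normalized counts in Control-sham against 12568, 10855 and 10862 in Control-IR. The VE-PTPiKO values were 17204, 23467 and 26682 in sham and 10648, 10097 and 12483 after IR. No IR library reached the lowest sham library. Cpt1a fell 1.8-fold in controls (log2 -0.84 ± 0.12 SE, adjusted p = 0.00111) and 2.0-fold in VE-PTPiKO (-1.0 ± 0.19, adjusted p = 0.0268).

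Slc25a20, the carrier that exchanges acylcarnitine for carnitine across the inner membrane (mm10, chromosome 9, 108662097 to 108684641), stood at 2272, 2290 and 2794 normalized counts in Control-sham against 1401, 1305 and 1164 in Control-IR. VE-PTPiKO-sham held 1943, 2115 and 2716 and VE-PTPiKO-IR 1483, 1316 and 1185. The groups did not overlap in either genotype, and the log2 differences were -0.92 ± 0.12 SE (adjusted p = 0.000651) and -0.75 ± 0.16 (adjusted p = 0.0464). Cpt2, which returns the chain to coenzyme A inside, stood at 5324, 5238 and 5863 in Control-sham against 3584, 2703 and 2778 in Control-IR, and at 4865, 5147 and 6692 against 3201, 2781 and 2836 in VE-PTPiKO. It was lower in every IR library, by 0.86 ± 0.13 SE in controls (adjusted p = 0.0013) and 0.91 ± 0.16 in VE-PTPiKO (adjusted p = 0.0168) on the log2 scale.

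Crat, a carnitine acetyltransferase of mitochondria that is also found in peroxisomes, had a log2 difference of -0.68 in controls (adjusted p = 0.0037) and -0.76 in VE-PTPiKO (adjusted p = 0.0596). Cpt1b, the muscle-type isoform, had -0.65 (adjusted p = 0.0185) and -0.48 (adjusted p = 0.228), but 81.4% of its exon length overlaps the gene Gm44502, so its reads are uncertain. Acsl1, which activates long chains with coenzyme A, fell in controls (-0.47, adjusted p = 0.0229) and differed by -0.66 in VE-PTPiKO (adjusted p = 0.108). In controls, Cpt1a, Slc25a20, Cpt2 and Crat were called under all 18 alternative settings, while Cpt1b and Acsl1 lost their calls when sham replicate 3, IR replicate 2 or IR replicate 3 was left out, and Acsl1 also when IR replicate 1 was (adjusted p 0.0511 to 0.0977). In VE-PTPiKO, the calls of Cpt1a, Cpt2 and Slc25a20 ended without any one of sham replicates 2 and 3 and IR replicates 1 and 2, and that of Slc25a20 also without sham replicate 1 (adjusted p 0.0506 to 0.221) and without the Malat1-rich libraries (0.0529).

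Few enzymes of the mitochondrial matrix were called by limma at an adjusted p under 0.05. Of 13 genes for the acyl-CoA dehydrogenases, the later steps of the spiral, unsaturated chains and electron transfer, 2 fell in controls (Acaa2 and Etfdh) and 0 in VE-PTPiKO, with median log2 differences of -0.32 and -0.16. All 13 values were negative in controls, and in VE-PTPiKO they ran from -0.56 (Eci1) to 0.05 (Acaa2). In controls 8 of the 13 had an unadjusted limma p under 0.05 (10.5% of all genes were lower at that level). For 7 of the 13 every IR library lay below every sham library (13.4% of all genes). In VE-PTPiKO these counts were 2 (7.15%) and 4 (10.0%). The authors' deposited table for controls also had Acadvl, Acadl, Hadha, Hadhb and Decr1 lower at an adjusted p under 0.05. Acadm, the medium-chain dehydrogenase (mm10, chromosome 3, 153922352 to 153944643), stood at 25522, 23970 and 30436 normalized counts in Control-sham against 23859, 21090 and 22195 in Control-IR. It stood at 27443, 18175 and 24772 in VE-PTPiKO-sham against 23516, 23682 and 15902 in VE-PTPiKO-IR. The control groups were separated by a narrow gap and the VE-PTPiKO groups overlapped, with log2 differences of -0.24 (95% interval -0.54 to 0.06, adjusted p = 0.314) and -0.16 (-0.66 to 0.34, adjusted p = 0.814).

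The very-long-chain, long-chain and short-chain dehydrogenases Acadvl, Acadl and Acads had log2 differences of -0.34, -0.34 and -0.13 in controls and -0.31, -0.30 and -0.09 in VE-PTPiKO, none of them called (adjusted p 0.0829 or more). Acadvl shares 42.9% of its exon length with Dvl2 on the other strand, and whether the counting used strand is not given. Hadha and Hadhb, the α and β subunits of the trifunctional protein that carries long chains through the last steps, differed by -0.33 and -0.32 in controls and by -0.26 and -0.06 in VE-PTPiKO. Per kilobase of exon, Hadha stood at 677 and Hadhb at 119 reads in Control-sham, and 18.1% of the 50-base stretches of Hadhb also occur in Gm13910, so reads may have been lost from the count of Hadhb. Hadh, the short-chain hydroxyacyl-CoA dehydrogenase, differed by -0.19 and -0.16.

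Acaa2, the mitochondrial thiolase, was the member of this set whose genotypes lay furthest apart. It stood at 4463, 3641 and 4680 normalized counts in Control-sham against 3447, 2604 and 3020 in Control-IR, which did not overlap. VE-PTPiKO-sham held 2930, 3950 and 4277 and VE-PTPiKO-IR 3992, 3694 and 3746, which did. It fell by 0.49 ± 0.14 SE in controls on the log2 scale (adjusted p = 0.0391) and differed by 0.05 ± 0.16 in VE-PTPiKO (adjusted p = 0.918). The control call ended without Control-sham replicate 1 or 3 or Control-IR replicate 2 or 3 (adjusted p 0.0982 to 0.207). The VE-PTPiKO value was -0.11 without VE-PTPiKO-sham replicate 1, the lowest sham library.

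Etfdh, which passes electrons from the flavoprotein to ubiquinone, fell by 0.50 in controls (SE 0.12, adjusted p = 0.0236) and differed by -0.49 in VE-PTPiKO (SE 0.15, adjusted p = 0.157). Its control call was lost on leaving out sham replicate 3, IR replicate 2 or IR replicate 3 (adjusted p 0.0879 to 0.146). Etfa and Etfb, the flavoprotein subunits themselves, differed by -0.09 and -0.31 in controls and by -0.16 and -0.12 in VE-PTPiKO, without a call. For Etfb, 58.2% of the exon length overlaps other genes. Decr1 and Eci1, which prepare unsaturated chains, differed by -0.35 and -0.25 in controls and by -0.19 and -0.56 in VE-PTPiKO, again without a call.

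Of the peroxisomal genes, 9 of 12 fell in controls (4.02% of all genes did), with a median log2 difference of -0.72. In VE-PTPiKO 2 of 12 were called (0.793% of all genes were lower) and the median was -0.69. Pex11a, a membrane protein that drives peroxisome division (mm10, chromosome 7, 79737263 to 79743025), stood at 2073, 1983 and 2271 normalized counts in Control-sham against 1044, 974 and 1015 in Control-IR. It stood at 2012, 2031 and 2564 in VE-PTPiKO-sham against 1099, 1015 and 1112 in VE-PTPiKO-IR. The IR libraries of both genotypes lay between 974 and 1112, far below the lowest sham library at 1983. Pex11a fell 2.08-fold in controls (log2 -1.05 ± 0.10 SE, adjusted p = 9.93e-05) and 2.03-fold in VE-PTPiKO (-1.02 ± 0.14, adjusted p = 0.00659), and was called under all 18 alternative settings in both.

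Ehhadh encodes the L-bifunctional enzyme of the classical peroxisomal spiral (mm10, chromosome 16, 21761284 to 21787834) and had the highest level per kilobase of exon among the 39, at 12670 reads in Control-sham. It stood at 32659, 33835 and 46801 normalized counts in Control-sham against 24921, 18739 and 18069 in Control-IR. VE-PTPiKO-sham held 28234, 38554 and 53076 and VE-PTPiKO-IR 22155, 21204 and 17557. The groups did not overlap, but the sham libraries differed widely among themselves, most in VE-PTPiKO. Ehhadh fell 1.83-fold in controls (log2 -0.87 ± 0.18 SE, adjusted p = 0.0101) and differed by -0.93 ± 0.24 in VE-PTPiKO (adjusted p = 0.083). The control call ended without Control-IR replicate 2 (adjusted p = 0.0654).

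Acaa1b, one of a pair of peroxisomal thiolase genes, stood at 2319, 2904 and 2765 normalized counts in Control-sham against 1285, 1138 and 1266 in Control-IR, and at 1679, 2496 and 3210 in VE-PTPiKO-sham against 1391, 1220 and 1383 in VE-PTPiKO-IR. All IR libraries lay below all sham libraries. It fell by 1.11 on the log2 scale in controls (SE 0.12, adjusted p = 0.000157) and differed by -0.84 in VE-PTPiKO (SE 0.22, adjusted p = 0.0932). Its neighbour Acaa1a fell by 0.47 in controls (adjusted p = 0.0307) and differed by -0.57 in VE-PTPiKO (adjusted p = 0.104). The pair shares sequence, with 30.5% of the 50-base stretches of Acaa1b also in Acaa1a, so the counting may have lost reads that fit both. The Acaa1a call ended without Control-sham replicate 1 or 3 or Control-IR replicate 2 or 3 (adjusted p 0.0611 to 0.146).

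The other enzymes of the peroxisomal spiral were not called by limma at an adjusted p under 0.05. Hsd17b4, the D-bifunctional enzyme that handles branched chains and bile acid precursors, differed by -0.35 in controls (adjusted p = 0.0669) and -0.39 in VE-PTPiKO (adjusted p = 0.234). Scp2, which encodes sterol carrier protein and a thiolase, differed by -0.08 and -0.09, with overlapping groups in both genotypes. For Scp2, 29.7% of the 50-base stretches also occur in the pseudogene Scp2-ps2.

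Of the auxiliary enzymes of peroxisomes, Eci2, Decr2 and Crot fell in controls. Eci2, an enoyl-CoA isomerase, stood at 4214, 4136 and 5251 normalized counts in Control-sham against 2856, 2140 and 1894 in Control-IR, and at 3512, 3960 and 4738 against 2733, 2377 and 2201 in VE-PTPiKO. The groups were separate in both genotypes, and Eci2 fell 1.99-fold in controls (log2 -0.99 ± 0.16 SE, adjusted p = 0.00221) and 1.66-fold in VE-PTPiKO (-0.73 ± 0.15, adjusted p = 0.0423). The VE-PTPiKO call ended without any one of sham replicates 2 and 3 and IR replicates 1 and 2 (adjusted p 0.0812 to 0.218), and also without the Malat1-rich libraries (0.0521). Decr2, the peroxisomal dienoyl-CoA reductase, fell by 0.63 in controls (adjusted p = 0.00399) and differed by -0.65 in VE-PTPiKO (adjusted p = 0.106). Crot, which moves medium chains onto carnitine for export to mitochondria, fell by 0.80 in controls (adjusted p = 0.0153) and differed by -0.83 in VE-PTPiKO (adjusted p = 0.0956). The control call of Crot needed each of sham replicate 3, IR replicate 2 and IR replicate 3 (adjusted p 0.0667 to 0.0946 without them).

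**Figure D2:**
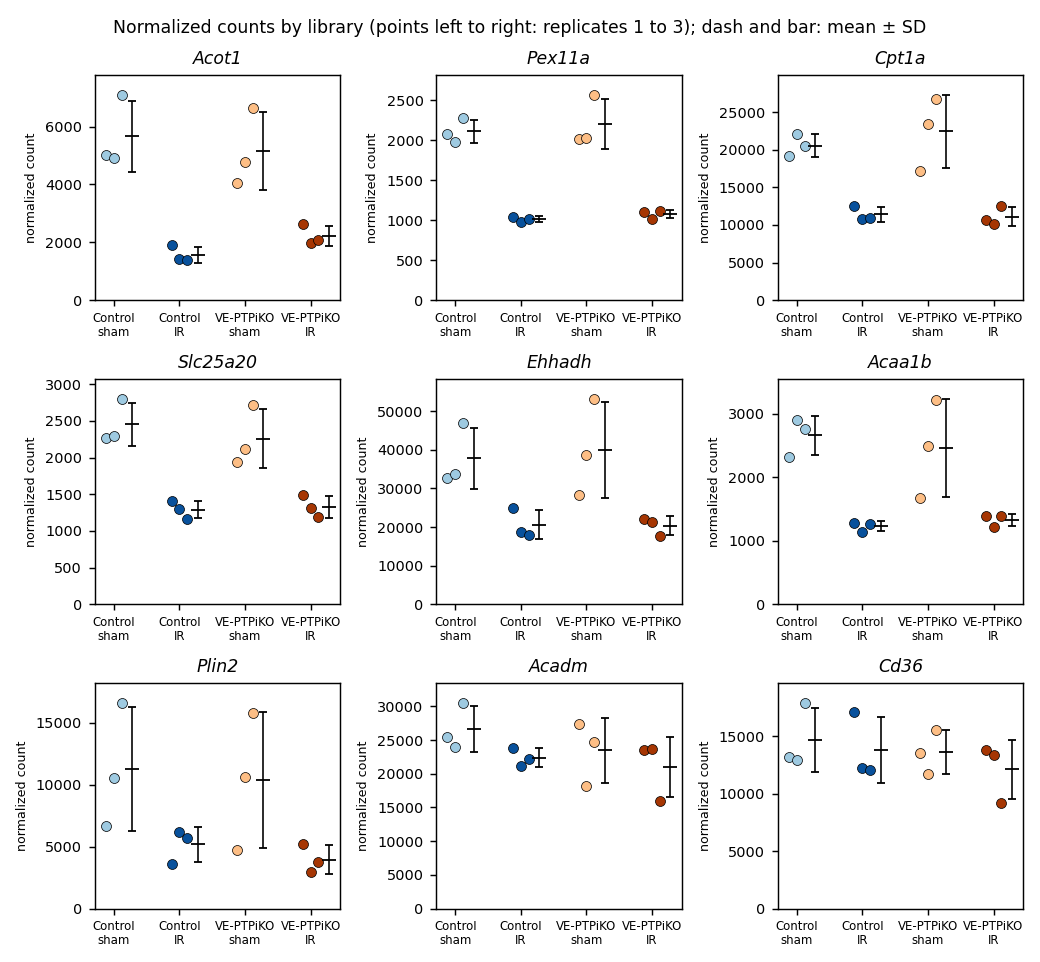
Normalized counts (vertical axes, each starting at 0) of 9 of the genes in all 12 libraries, as points for replicates 1 to 3 of each group, with the group mean ± SD beside them. For Pex11a the 6 IR libraries lie between 974 and 1112 and the 6 sham libraries at or above 1983, while the groups of Cd36 overlap.

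Acyl-CoA thioesterases release free fatty acids from coenzyme A. Of those in the list, Acot1, Acot3 and Acot2 gave the widest differences among the 39 in controls. Acot4 (-0.43) and Acot8 (-0.23) differed less than the median of the 39 (-0.49). Acot2 (mitochondrial), Acot1 (cytosolic), Acot4 and Acot3 (peroxisomal) lie next to each other on chromosome 12 between 83987860 and 84059564 (mm10). Acot1 stood at 5020, 4899 and 7091 normalized counts in Control-sham against 1895.6, 1417.9 and 1384.9 in Control-IR, and at 4055, 4775 and 6648 against 2630, 1980 and 2072 in VE-PTPiKO. Every IR library lay below every sham library. Acot1 fell 3.6-fold in controls (log2 -1.85 ± 0.17 SE, adjusted p = 6.76e-05) and 2.28-fold in VE-PTPiKO (-1.19 ± 0.20, adjusted p = 0.0158). The VE-PTPiKO call ended without sham replicate 2, sham replicate 3 or IR replicate 2 (adjusted p 0.0635 to 0.0866).

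Acot2 stood at 1632, 1901 and 3420 normalized counts in Control-sham against 1048, 976 and 980 in Control-IR, and at 1240, 2173 and 3178 against 992, 870 and 972 in VE-PTPiKO. The IR libraries were close to each other, below every sham library, and the sham libraries varied widely, with replicate 3 highest in both genotypes. Acot2 fell 2.19-fold in controls (log2 -1.13 ± 0.22 SE, adjusted p = 0.00746) and differed by -1.11 ± 0.29 in VE-PTPiKO (adjusted p = 0.0928). Acot1 and Acot2 are close copies: 24.5% of the 50-base stretches of Acot2 occur in Acot1 and 13.6% of those of Acot1 in Acot2, so reads that fit both may be missing from each count.

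Acot3 stood at 835, 1108 and 1087 normalized counts in Control-sham against 503, 316 and 367 in Control-IR, and at 563, 944 and 1175 against 543, 376 and 638 in VE-PTPiKO. The control groups were separate and the VE-PTPiKO groups overlapped, since IR replicate 3 exceeded sham replicate 1. Acot3 fell by 1.36 on the log2 scale in controls (SE 0.18, adjusted p = 0.000651) and differed by -0.75 in VE-PTPiKO (SE 0.28, adjusted p = 0.248). Acot4 fell by 0.43 in controls (adjusted p = 0.0263) and differed by -0.22 in VE-PTPiKO (adjusted p = 0.582), and its control call ended without Control-sham replicate 3 or any one Control-IR library (adjusted p 0.0629 to 0.133). Exons of Acot3 and Acot4 overlap Gm49366 and a gene on the other strand over 20.6% and 9.7% of their length. Acot8, a peroxisomal thioesterase of another chromosome, differed by -0.23 and -0.21 without a call.

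Of the 5 other PPARα targets, 4 fell in controls (Acot1, Vnn1, Angptl4 and Plin2) and 1 in VE-PTPiKO (Acot1). The shares of all genes called lower were 4.02% and 0.793%. Angptl4, a secreted inhibitor of lipoprotein lipase, stood at 14142, 11570 and 14654 normalized counts in Control-sham against 9402, 6408 and 6223 in Control-IR, and at 12513, 14143 and 15379 against 9902, 8086 and 8030 in VE-PTPiKO. No groups overlapped, and Angptl4 fell by 0.89 on the log2 scale in controls (SE 0.17, adjusted p = 0.00592) and differed by -0.69 in VE-PTPiKO (SE 0.15, adjusted p = 0.0509). Vnn1, the pantetheinase that breaks down a coenzyme A precursor, fell by 0.84 in controls (adjusted p = 0.00831) and differed by -0.80 in VE-PTPiKO (adjusted p = 0.0659). The control call of Vnn1 ended without Control-IR replicate 2 (adjusted p = 0.0543).

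Plin2, a coat protein of lipid droplets, stood at 6683, 10513 and 16542 normalized counts in Control-sham against 3573, 6213 and 5714 in Control-IR, and at 4743, 10578 and 15752 against 5190, 2913 and 3727 in VE-PTPiKO. The sham libraries were far apart in both genotypes, and in VE-PTPiKO the groups overlapped. The log2 difference was -1.06 ± 0.29 SE in controls (adjusted p = 0.0396) and -1.27 ± 0.39 in VE-PTPiKO (adjusted p = 0.152). The control call ended without any one library other than Control-sham replicate 1 (adjusted p 0.0637 to 0.137) and with DESeq2. Cd36, a fatty acid uptake receptor, stood at 13243, 12912 and 17872 in Control-sham against 17117, 12262 and 12054 in Control-IR, and at 13543, 11718 and 15554 against 13777, 13407 and 9173 in VE-PTPiKO. Its groups overlapped, with log2 differences of -0.09 (95% interval -0.47 to 0.29) and -0.18 (-0.62 to 0.27).

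Set side by side in controls, 9 of 20 mitochondrial genes were called with a median log2 difference of -0.35, 9 of 12 peroxisomal genes with -0.72, and 4 of 5 other targets with -0.89. The share of all genes called lower in controls was 4.02%. Within the mitochondrial genes, all 5 of the carnitine shuttle were called and 0 of the 4 acyl-CoA dehydrogenases. Of these 4, 2 (Acadvl and Acadl) had an unadjusted limma p under 0.05 and were lower in the authors' deposited table. In VE-PTPiKO, the medians were -0.30, -0.69 and -0.80 and the calls were 3 of 20, 2 of 12 and 1 of 5 (0.793% of all genes). These are descriptions of chosen genes that share libraries, and the difference between the places was not tested.

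**Figure D3:**
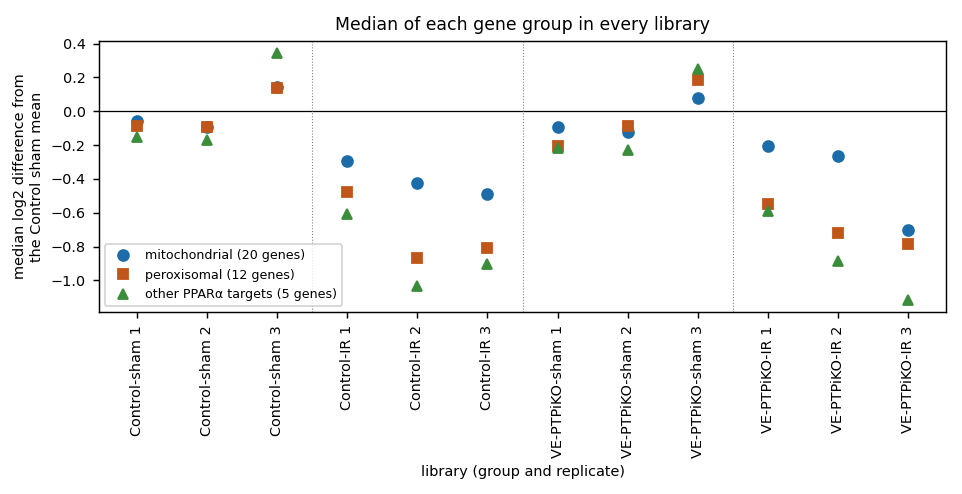
For each library, the median over the mitochondrial (circles), peroxisomal (squares) and other PPARα target genes (triangles) of the log2 difference from the mean of the Control-sham libraries. The mitochondrial median is -0.29 to -0.49 in Control-IR and the peroxisomal median -0.48 to -0.86; in VE-PTPiKO-IR replicate 3 the mitochondrial median is -0.70, against -0.21 and -0.27 in the other IR libraries of that genotype.

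The genotypes were then compared directly, to ask whether targeting VE-PTP changed these genes or their response to IR. For the interaction (the IR effect in VE-PTPiKO minus that in controls), 0 of the 39 were called by limma, edgeR or DESeq2, as were 0 of all 16339 genes, and 2 had an unadjusted p under 0.05 against 2.64% of all genes. These 2 were Acot1 (log2 0.66, 95% interval 0.04 to 1.27) and Acaa2 (0.55, 0.08 to 1.02), both with a limma adjusted p of 0.999. Over the 39 the interaction ran from -0.31 to 0.66 with a median of 0.03. The 95% intervals leave room for sizeable differences in either direction, from -0.31 to 0.38 for Pex11a, the narrowest, to -1.45 to 1.04 for Plin2, the widest.

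In sham kidneys, 0 of the 39 differed between genotypes by limma, edgeR or DESeq2 (0, 0 and 0.00612% of all genes), and 0 had an unadjusted limma p under 0.05 (1.63% of all genes did). The largest difference was in Ppara, 0.37 higher on the log2 scale in VE-PTPiKO (95% interval -0.01 to 0.75). After IR, 0 were called by any of the 3 tools (0.00612% of all genes by DESeq2), and Acot1 (0.51, 95% interval 0.08 to 0.95) and Acaa2 (0.34, 0.01 to 0.67) had an unadjusted p under 0.05, against 4.34% of all genes. Each was higher in VE-PTPiKO-IR. The direct contrasts share their libraries with the interaction, so they are not separate evidence. That more genes passed in controls than in VE-PTPiKO does not show that the responses differ.

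The 39 genes also varied together between libraries of 1 group. Sham replicate 3 was the highest of its 3 libraries for 29 of 39 genes in controls and for 34 of 39 in VE-PTPiKO, against 29.3% and 30.9% of all genes. Among injured kidneys, Control-IR replicate 1 was highest for 33 of 39 (34.0% of all genes), including all 12 peroxisomal genes. The submitters' label of that library carries a code number far below those of all the other whole-kidney libraries. What these codes mean is not given. VE-PTPiKO-IR replicate 1 was highest for 28 and replicate 3 lowest for 27 of 39 (29.7% and 39.5% of all genes). VE-PTPiKO-IR replicate 3 is also the library richest in Malat1, and the part of that in these values was not tested. Without the Malat1-rich libraries 22 genes fell in controls and 7 in VE-PTPiKO, where the calls of Slc25a20 and Eci2 ended and Crot and Vnn1 were called instead. Over all genes, 649 and 369 were called lower without them.

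**Figure D4:**
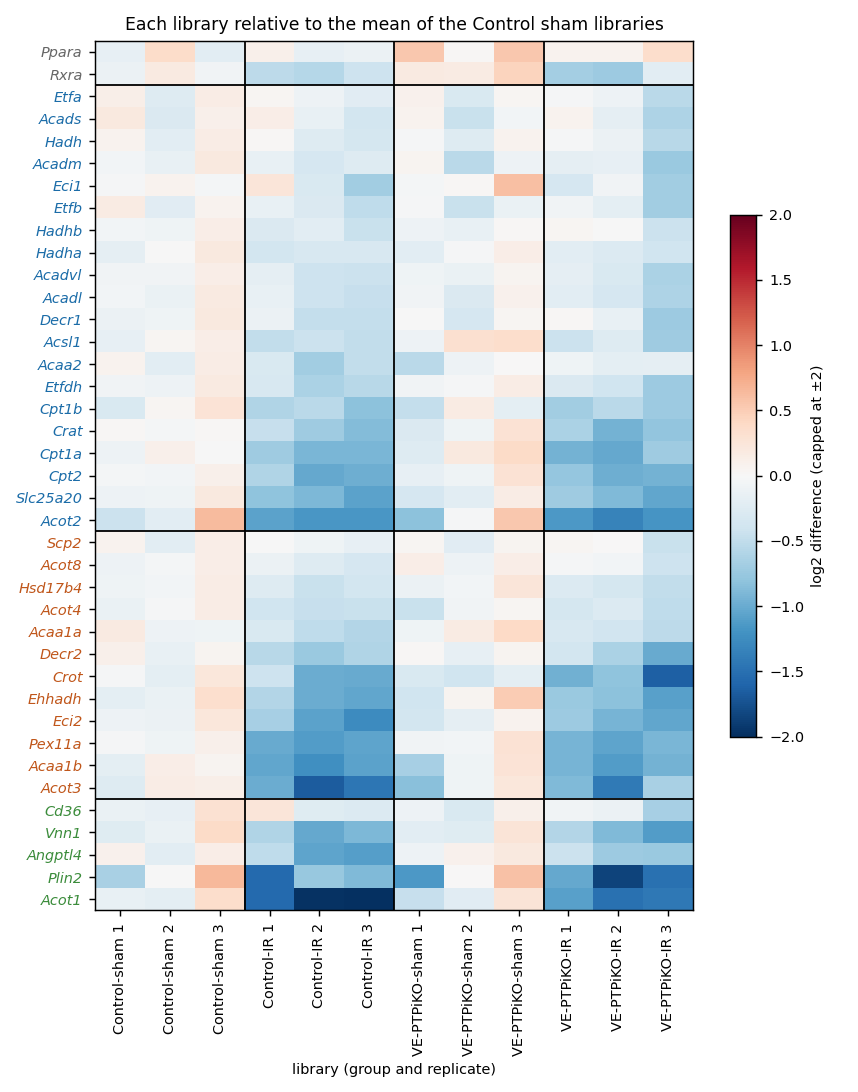
Each gene (row) in each library (column) as the log2 difference from the mean of the Control-sham libraries, blue for lower and red for higher, with colours capped at 2; lines separate the 4 groups of libraries and the places of action. Rows of Acot1, Acot2, Acot3, Pex11a and Cpt1a are blue in all 6 IR columns, and the third sham column of each genotype is the reddest of its group for most rows.

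Genes of the pathway outside the 39 were read from lists. The shares of all genes tested, for every list count below, were 4.02% called lower and 7.48% higher in controls. In VE-PTPiKO they were 0.793% and 1.92%. Of 38 tested enzymes and transporters of fatty acid oxidation, 10 fell and 0 rose in controls (median log2 difference -0.19) and 1 fell in VE-PTPiKO (median -0.14). Mlycd, which degrades the CPT1 inhibitor malonyl-CoA, and Acacb, which makes it at mitochondria, both fell in controls, by 0.94 (adjusted p = 0.00218) and 0.88 (adjusted p = 0.014), and differed by -0.66 and -0.92 in VE-PTPiKO (adjusted p = 0.114 and 0.311). The Acacb call ended without Control-IR replicate 1 (adjusted p = 0.0521). Acot5, a further peroxisomal thioesterase, fell by 1.1 in controls (adjusted p = 0.0239) and differed by -0.71 in VE-PTPiKO (adjusted p = 0.442), and its call ended without any of 4 single libraries (Control-sham replicate 2 or 3 and Control-IR replicate 2 or 3; 0.0525 to 0.101).

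Some further PPARα targets fell steeply: 7 of 18 tested were lower in controls (median -0.44) and 5 of 18 in VE-PTPiKO (median -0.54), and 0 rose. Creb3l3, a transcription factor of lipid metabolism, fell 16.8-fold in controls (adjusted p = 0.000127) and 11.6-fold in VE-PTPiKO (adjusted p = 0.00551), from group means of 90.6 and 96.9 normalized counts to 4.29 and 7.09. The fatty acid hydroxylase genes Cyp4a14 and Cyp4a10 fell 6.5-fold and 2.07-fold in controls and 7.17-fold and 2.05-fold in VE-PTPiKO, and both have close paralogs. Without VE-PTPiKO-sham replicate 2 or 3 or VE-PTPiKO-IR replicate 2 the Cyp4a10 call of that genotype ended (adjusted p 0.0613 to 0.0969).

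Among 19 partners and co-regulators of PPAR receptors, 2 fell (Lpin1 and Sirt3) and 2 rose in controls and 2 fell in VE-PTPiKO. In controls 4.02% of all genes fell and 7.48% rose, so the count of rises in this list is near the share over all genes. Nrip1, a corepressor of nuclear receptors, rose 2.05-fold in controls (log2 1.03 ± 0.14 SE, adjusted p = 0.000651) and differed by 0.47 ± 0.24 in VE-PTPiKO (adjusted p = 0.399). Ppard, which encodes the related receptor PPARδ, rose 2.07-fold in controls (adjusted p = 0.00347), from a mean of 187 to 389 normalized counts, and differed by 0.26 in VE-PTPiKO (adjusted p = 0.722). Lpin1, a phosphatidate phosphatase and PPARα coactivator, fell by 0.77 in controls (adjusted p = 0.0145) and by 0.88 in VE-PTPiKO (adjusted p = 0.0267). The Lpin1 call ended without Control-IR replicate 2 or 3 (adjusted p 0.0592 to 0.0728) and, in VE-PTPiKO, without any one library other than IR replicate 3 (0.0765 to 0.153).

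Of 20 genes of lipid droplets and lipases, 6 fell and 3 rose in controls (Hilpda, Plin3 and Fabp4 rose) and 3 fell in VE-PTPiKO (Plin5, Pnpla2 and Lipe). Plin5, a droplet coat protein that tethers droplets to mitochondria, fell 3.6-fold in controls (log2 -1.85 ± 0.20 SE, adjusted p = 0.000183) and 2.93-fold in VE-PTPiKO (-1.55 ± 0.21, adjusted p = 0.00628). Pnpla2, the adipose triglyceride lipase, fell by 0.83 (adjusted p = 0.00219) and by 1.13 (adjusted p = 0.0282) on the log2 scale. Its inhibitors moved apart in controls: G0s2 fell 3.66-fold (adjusted p = 0.00104) and Hilpda, a hypoxia-induced droplet protein, rose 2.58-fold (adjusted p = 0.00128). In VE-PTPiKO they differed by -0.63 (adjusted p = 0.536) and 1.09 (adjusted p = 0.108). The Pnpla2 call in VE-PTPiKO ended without any one of sham replicates 2 and 3 and IR replicates 1 and 2 (adjusted p 0.118 to 0.131). Of 16 genes of peroxisome assembly, catalase included, 2 fell in controls and 0 in VE-PTPiKO. Pex26, which anchors the peroxisomal import machinery, had a log2 difference of -0.66 in controls (adjusted p = 0.0222). The Pex26 call was lost when sham replicate 3, IR replicate 2 or IR replicate 3 was left out (adjusted p 0.0653 to 0.124).

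Markers of the cells that burn fatty acids were read beside these results. Of 20 proximal tubule markers, 0 fell and 1 rose in controls (Keg1, log2 0.60, adjusted p = 0.0134), with a median of -0.01, and 0 passed in VE-PTPiKO, with a median of -0.13. Their summed level was 468300 to 554400 normalized counts in Control-sham and 471700 to 473700 in Control-IR, and 463100 to 565200 against 441400 to 469600 in VE-PTPiKO. Of 10 markers of the proximal straight tubule, 1 fell in controls (Slc22a13, -0.55, adjusted p = 0.0297) and all 10 were negative, with a median of -0.23, while in VE-PTPiKO 0 passed and 9 were negative, with a median of -0.31. Their sum was 218500 to 227700 in Control-sham, 163800, 173800 and 218000 in Control-IR, 201900 to 233300 in VE-PTPiKO-sham and 150700 to 179100 in VE-PTPiKO-IR. The highest of the Control-IR sums was that of replicate 1, the library in which most of the 39 genes were also highest. That list includes Slc27a2, itself a fatty acid activating enzyme, and the part of these tubule cells in the fall of the 39 genes was not tested.

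Of 8 thick ascending limb markers 2 fell in controls (Kcnj1, log2 -0.80, and Ppp1r1b, -0.67) and 0 in VE-PTPiKO, with summed levels of 135800 to 154400 normalized counts in Control-sham, 125800 to 142100 in Control-IR, 133300 to 151600 in VE-PTPiKO-sham and 110700 to 147400 in VE-PTPiKO-IR. Several of the genes above are also active in fat cells, which surround the kidney. Of 10 adipocyte markers, 2 fell and 1 rose in controls (Lipe and Pck1; Fabp4) and 2 fell in VE-PTPiKO (Lipe and Pck1). Their sum of 172000 to 173500 normalized counts in Control-sham, 56860 to 70560 in Control-IR, 166200 to 209300 in VE-PTPiKO-sham and 65020 to 81150 in VE-PTPiKO-IR was 96.5% to 99.1% Pck1, a gluconeogenic gene of the proximal tubule. The defining fat-cell gene Adipoq stood at 5.62 to 58.5 normalized counts in Control-sham and 17.02 to 21.3 in Control-IR, and Lep at or below 6.21 in every library, while Plin2 and Angptl4 stood at or above 2913 and 6223.

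Markers of other cells were counted too, beside 7.48% of all genes called higher in controls and 1.92% in VE-PTPiKO. Endothelial markers gave 0 lower and 1 higher of 10 in controls (Cdh5) and 0 of 10 in VE-PTPiKO. Their median log2 differences were -0.06 and -0.02, and their summed levels were 14590 to 18620 normalized counts over all 12 libraries. Macrophage markers gave 2 higher of 10 in controls (Cd68 and Lyz2) and 1 in VE-PTPiKO (Cd68), with sums of 2229 to 2318 in Control-sham, 2660 to 2878 in Control-IR, 2353 to 2443 in VE-PTPiKO-sham and 2459 to 2889 in VE-PTPiKO-IR. Red cell genes gave 2 higher of 4 tested in controls (Hba-a1 and Alas2) and 0 in VE-PTPiKO, with sums of 525 to 833 in Control-sham and 1510 to 2735 in Control-IR, and 555 to 748 against 763 to 2248 in VE-PTPiKO. The part of these other cells in the fall of the 39 was not tested either.

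In the authors' deposited table for controls, 29 of the 39 were lower at an adjusted p under 0.05, against 8.60% of 13664 genes with an adjusted p, and in the authors' deposited table for VE-PTPiKO 21 were, against 4.88% of 13732. None of the 39 was higher in the authors' deposited table of either genotype. DESeq2 on the recovered reads, adjusted over all genes passing the filter used here, called 23 lower in controls (5.21% of all genes) and 18 in VE-PTPiKO (2.37%), and edgeR called 23 (4.05%) and 7 (0.768%). With a fall of at least 1.5-fold asked for beside the limma adjusted p, 17 (2.94%) and 7 (0.793%) were called.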

How the data were processed

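Per the submitters' processing notes, reads were handled with FastQC, STAR, HTSeq and DESeq2 on mm10, with no versions given, and RNA was prepared with Trizol and a TruSeq kit per the labels' protocols. The sources used here do not give strandedness. The authors deposited 1 table per genotype, with a normalized signal for each library (counts divided by a size factor computed within the table), group means, log2 fold changes and p-values. Dividing out the factors (0.8863 to 1.2125) gave whole reads for 100.0% of values, within 0.02. Of 23493 lines, repeats of 182 IDs were dropped, which left 23286 genes, and no mitochondrially encoded gene is listed.

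IR was tested against sham within each table by limma 3.58.1 (R 4.3.3) on log2(deposited value + 1), over genes with a mean of at least 1, with Benjamini-Hochberg adjustment over all of them. Folds on this scale understate changes of low genes. Genotype contrasts and the interaction used the recovered reads of all 12 libraries, scaled together by medians of ratios over 14828 genes. Alternatives included edgeR 4.0.16, DESeq2 1.42.0, other filters and pseudocounts, a replicate block and leaving out libraries. The fits were tested on simulated data with 200 changed genes. Of 2-fold changes, 51.5% were recovered for IR in controls, 66.4% for IR in VE-PTPiKO and 22.5% for the interaction. For the genotype contrasts 64.4% (sham) and 64.6% (IR) were. Recovery of 4-fold changes was 83.8% for the interaction and 89.1% to 95.7% for the others. In the same order, false calls were 10 of 156, 14 of 174, 7 of 120, 4 of 161 and 12 of 166. Counts of the 39 genes and medians are descriptions, and no list was tested as a set.

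The 39 genes and all lists were chosen with earlier results of these data known. Outside the 39, the text names up to 4 called genes of a list by size of change in either genotype, and further genes chosen after their values were seen. Some called genes of these lists are not reported here. The 2 single-cell samples of the series, taken at 24 h, were not analysed here. Every library holds at least 15427887 reads, and 3 libraries a group limit the precision.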

Additional observations from a re-analysis of the deposited data

How the results depend on the processing

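With 3 libraries a group, many calls depended on single libraries. In controls, 12 of the 23 calls held under all 18 alternatives (Cpt1a, Slc25a20, Cpt2, Crat, Acot2, Acaa1b, Decr2, Eci2, Acot3, Pex11a, Acot1 and Angptl4), the other 11 ended without some single library, and the count of members called lower ran from 12 to 22 over left-out libraries. In VE-PTPiKO, 1 of 7 (Pex11a) held under all 18, and the count ran from 1 to 14 over left-out libraries. It was 18 with DESeq2, 22 with library weights, 12 with a trend on transcript length removed (an alternative chosen after seeing the data) and 17 in 1 model of all 12 libraries. In controls the same settings gave 23, 28, 26 and 19. Calls over all genes moved too. In VE-PTPiKO 389, 2044, 258 and 395 genes were called lower at these settings, against 130 in the main fit. In controls 847, 979, 857 and 505 were, against 654. Over left-out libraries the genes called lower ran from 252 to 649 in controls and from 18 to 979 in VE-PTPiKO. The 1 model thus called 19 members lower in controls and 17 in VE-PTPiKO, against 505 and 395 of all 16339 genes. In it the control calls of Acsl1, Acaa2, Acot4 and Plin2 ended. The cause of these shifts in the counts was not tested. Within a genotype, the deviations of same-numbered sham and IR libraries correlated at 0.048, 0.004 and -0.059 in controls and 0.292, -0.2 and 0.041 in VE-PTPiKO, short of the level over 0.1 in every pair that was asked for, and the numbers were not taken to pair libraries. No such correlation was computed across genotypes, where sham replicate 3 was the highest of its group for 29 and 34 of the 39 genes and IR replicate 1 for 33 and 28. With a replicate block 23 and 7 members were called lower and 0 for the interaction and both genotype contrasts. Over all genes 622 and 228 were called lower with that block. Of the VE-PTPiKO calls, those of Slc25a20 (adjusted p = 0.051) and Eci2 (0.0508) ended and Crat (0.0489) and Acot2 (0.0397) were called instead.

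Directions turned only for genes without a call. Over left-out libraries, the control log2 difference ran from -0.159 to 0.126 for Ppara, the high end without Control-sham replicate 2, and from -0.253 to 0.065 for Cd36, above 0 without Control-sham replicate 3 (0.065) or Control-IR replicate 3 (0.002). In VE-PTPiKO it ran from -0.334 to 0.033 for Acadm, -0.25 to 0.099 for Acads, -0.146 to 0.092 for Hadhb, -0.269 to 0.004 for Hadh, -0.345 to 0.033 for Decr1, -0.282 to 0.003 for Etfa, -0.247 to 0.073 for Etfb, -0.178 to 0.072 for Scp2 and -0.286 to 0.012 for Cd36, each high end without IR replicate 3, and Acads was also at 0.017 without sham replicate 1. For Acaa2 it ran from -0.106 without sham replicate 1 to 0.165. With library weights, Ppara was at 0.001 in controls, and in VE-PTPiKO Acads was at 0.013, Hadhb at 0.027, Acaa2 at -0.047, Etfb at 0.014 and Scp2 at 0.018. Without the Malat1-rich libraries Ppara was at 0.126 in controls and Hadhb at 0.056 in VE-PTPiKO. With the length trend removed Acaa2 was at -0.062.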
